A study of Mus musculus with 6 samples.

Results

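The genes described are 9 transcripts known from the epithelium of the choroid plexus, Ttr, Enpp2, Kl, Ace, Slc13a4, Sulf1, Folr1, Clic6 and Kcnj13, of 14148 genes listed. They were taken by gene symbol and had been chosen by their higher normalized counts in LD-high than in LD-low microglia (defined next), so that difference is given as a description, without a test. RNA came from microglia of the hippocampus of male C57BL/6 mice aged 18 months, with no genetic change named in the labels. Live cells positive for CD11b with low CD45 were stained with BODIPY, a dye of neutral lipid, and about 10000 cells per sample were sorted as lipid droplet-low (LD-low) or lipid droplet-high (LD-high). There were 3 libraries of each kind, with the hippocampi of 3 mice pooled for every one. Nothing in the labels says whether the pools held different mice, so the spread between libraries may be technical in part. The libraries held 15895576 to 38489448 reads in genes. All values are normalized counts, that is, reads divided by 1 size factor per library, and 1 read was worth 0.702 to 1.67 normalized counts. The sorted cells carried the transcripts of microglia: all 12 microglial markers were tested, and their summed level was 1687780 to 1967210 normalized counts in LD-low and 1662040 to 1879160 in LD-high libraries.

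The choroid plexus is a fold of vascular tissue covered by a secretory epithelium that hangs in the brain ventricles, and the plexus of the lateral ventricle lies along the hippocampus. Its epithelium makes cerebrospinal fluid and moves ions, vitamins and hormones between blood and that fluid. Transthyretin (Ttr) and autotaxin (Enpp2) are among its main secreted products, and klotho (Kl), a membrane protein that serves as a co-receptor for the hormone FGF23 and is also shed, is made there at high level. Of the 9 genes, Ttr, Enpp2 and Sulf1 encode secreted or extracellular proteins, Kl and Ace membrane proteins with a large outer part, Folr1 and Slc13a4 an uptake receptor and a transporter, and Clic6 and Kcnj13 channel proteins.

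The promoters of Kl, Ace, Slc13a4 and Kcnj13 are shown because these genes are the members with a RefSeq window among the 5 whose groups did not overlap. The table gave windows for 4 of the 9 members, and Ttr, Enpp2, Sulf1, Folr1 and Clic6 had none. Each sequence is the 250 bases before the annotated start, 5′ to 3′ on the gene's strand, from RefSeq (GRCm38.p6), and each was found once, unchanged, in NCBIM37 (mm9), whose coordinates are given. For Ace, which has 2 windows, the one at the more upstream start is shown. Capitals mark the letters TAATCC, the core that Otx homeodomain factors such as the choroid plexus factor Otx2 bind, or GTAAACA, a forkhead core, on either strand. No match of 1 motif overlapped the other.
Kl (chr5:151754932-151755181, plus strand): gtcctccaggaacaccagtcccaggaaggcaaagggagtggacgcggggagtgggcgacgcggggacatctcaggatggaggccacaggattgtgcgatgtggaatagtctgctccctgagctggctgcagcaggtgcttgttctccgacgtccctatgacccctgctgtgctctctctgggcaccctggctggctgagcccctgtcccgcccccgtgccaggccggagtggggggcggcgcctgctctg
Ace (chr11:105829012-105829261, plus strand): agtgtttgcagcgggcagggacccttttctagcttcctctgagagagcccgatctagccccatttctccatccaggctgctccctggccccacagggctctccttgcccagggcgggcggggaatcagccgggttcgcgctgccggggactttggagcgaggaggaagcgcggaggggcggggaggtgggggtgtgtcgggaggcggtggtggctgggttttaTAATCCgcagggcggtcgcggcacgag
Slc13a4 (chr6:35258127-35258376, minus strand): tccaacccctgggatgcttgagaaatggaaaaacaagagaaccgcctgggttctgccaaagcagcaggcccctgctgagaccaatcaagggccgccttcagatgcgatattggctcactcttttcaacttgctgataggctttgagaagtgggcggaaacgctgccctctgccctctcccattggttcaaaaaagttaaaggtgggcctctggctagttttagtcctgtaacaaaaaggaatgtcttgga
Kcnj13 (chr1:89291305-89291554, minus strand): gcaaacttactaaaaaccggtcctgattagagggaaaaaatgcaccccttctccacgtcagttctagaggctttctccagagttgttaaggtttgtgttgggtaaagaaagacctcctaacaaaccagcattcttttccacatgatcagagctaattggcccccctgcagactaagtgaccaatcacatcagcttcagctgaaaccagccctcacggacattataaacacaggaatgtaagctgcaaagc
The Ace window held TAATCC once, starting at position -27 from the start, on the gene's own strand. None of the other windows shown held either motif. Of 32851 such windows in the whole table, 6.25% held TAATCC and 3.17% held GTAAACA on either strand. Among 64 windows of the other choroid plexus genes listed further on, the numbers were 4 and 2 windows. A match is a run of letters and not a site that was measured.

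Ttr, the carrier of thyroid hormone and retinol-binding protein in cerebrospinal fluid (chromosome 18, 20823751 to 20832825, mm9), had 343, 94.2 and 637 normalized counts in LD-low libraries 1, 2 and 3 and 1801, 626 and 1531 in LD-high libraries 1, 2 and 3. LD-high libraries 1 and 3 stood above every other library, while LD-high library 2 lay just under LD-low library 3, so the groups overlapped. The group means were 358 ± 272 and 1319 ± 615 (SD, n = 3 each), a ratio of 3.68. On the log2(normalized count + 1) scale used for all log2 differences here, LD-high minus LD-low was 2.12 ± 0.50 (SE). With LD-low library 2 left out the Ttr value was 1.36.

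Enpp2, whose product autotaxin releases lysophosphatidic acid from lysophospholipids (chromosome 15, 54670453 to 54751701), had 559.9, 248 and 1054 normalized counts in the LD-low libraries and 3381 (replicate 1), 1007 (replicate 2) and 3605 (replicate 3) in the LD-high libraries. The libraries fell in nearly the same order as for Ttr, again with LD-high library 2 just under LD-low library 3. The means were 621 ± 407 and 2664 ± 1439.8 (SD, n = 3 each), a ratio of 4.29 and a log2 difference of 2.13 ± 0.45 (SE). Together the 9 genes summed to 1810 normalized counts in LD-low library 3 and 1803 in LD-high library 2, with 383 and 963 in the other LD-low and 5595 and 5717 in the other LD-high libraries.

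Sulf1, an extracellular sulphatase that trims 6-O-sulphates from heparan sulphate (chromosome 1, 12708626 to 12850452), did not follow that order. It had 4.21, 9.74 and 2.79 normalized counts in the LD-low libraries, from 6, 9 and 3 reads, and 31.3, 29.1 and 25.04 in the LD-high libraries, from 42, 26 and 15 reads. All LD-high values lay above all LD-low values, LD-high library 2 was level with the other LD-high libraries, and LD-low library 2 was the highest of its group. The means were 5.58 ± 3.68 and 28.5 ± 3.17 (SD, n = 3 each), a ratio of 5.10.

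Kl (chromosome 5, 151755182 to 151796384) had 19.6, 14.1 and 39.0 normalized counts in the LD-low libraries and 198, 43.7 and 192 in the LD-high libraries. The groups did not overlap, but the gap rested on LD-high library 2, whose 43.7 came from 39 reads and LD-low library 3's 39.0 from 42 reads. The means were 24.2 ± 13.1 and 145 ± 87.5 (SD, n = 3 each), a ratio of 5.96 and a log2 difference of 2.37 ± 0.50 (SE). Kl had also been singled out in the study published on these samples, which is no independent support, as the samples are the same.

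Ace, the peptidase that turns angiotensin I into angiotensin II (chromosome 11, 105829259 to 105851278), had 3.51, 7.58 and 13.9 normalized counts in the LD-low libraries and 71.5, 32.5 and 66.8 in the LD-high libraries. The groups were apart, with 5, 7 and 15 reads against 96, 29 and 40 reads. The ratio of the means, 8.34 ± 5.25 and 56.9 ± 21.3 (SD, n = 3 each), was 6.83.

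Slc13a4, a sodium-coupled sulphate transporter (chromosome 6, 35217957 to 35258131), had 4.21, 3.25 and 6.5 normalized counts in the LD-low libraries and 43.2, 30.2 and 31.7 in the LD-high libraries. Its LD-high libraries lay close together, and its ratio of means was the highest of the 9 genes at 7.53 (4.65 ± 1.67 against 35.1 ± 7.09, SD, n = 3 each). Folr1, the folate receptor through which the epithelium passes folate into cerebrospinal fluid (chromosome 7, 109006845 to 109019302), had 8.42, 1.08 and 9.29 normalized counts in the LD-low libraries and 55.1, 3.36 and 36.7 in the LD-high libraries. Here LD-high library 2, with 3 reads, lay below LD-low libraries 1 and 3, with 12 and 10 reads. Folr1 reached 10 normalized counts in 2 libraries and so was the member that missed the filter for the fit over all genes.

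Clic6, an intracellular chloride channel family member (chromosome 16, 92485981 to 92541488), had 7.72, 3.25 and 30.7 normalized counts in the LD-low libraries and 64.8, 8.96 and 68.5 in the LD-high libraries. Its groups overlapped because LD-high library 2 lay below LD-low library 3, though it lay above LD-low library 1. Kcnj13, the inward rectifier potassium channel Kir7.1 of the epithelium's apical face (chromosome 1, 89282938 to 89291304), had 11.9, 2.17 and 16.7 normalized counts in the LD-low libraries and 70.8, 22.4 and 38.4 in the LD-high libraries. Its groups did not overlap. The ratios of means were 3.42 for Clic6 and 4.27 for Kcnj13, with log2 differences of 1.76 ± 0.78 and 2.17 ± 0.64 (SE). With LD-low library 2 left out these were 1.10 for Clic6 and 1.42 for Kcnj13, and with LD-high library 2 left out Clic6 was at 2.68.

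**Figure D1:**
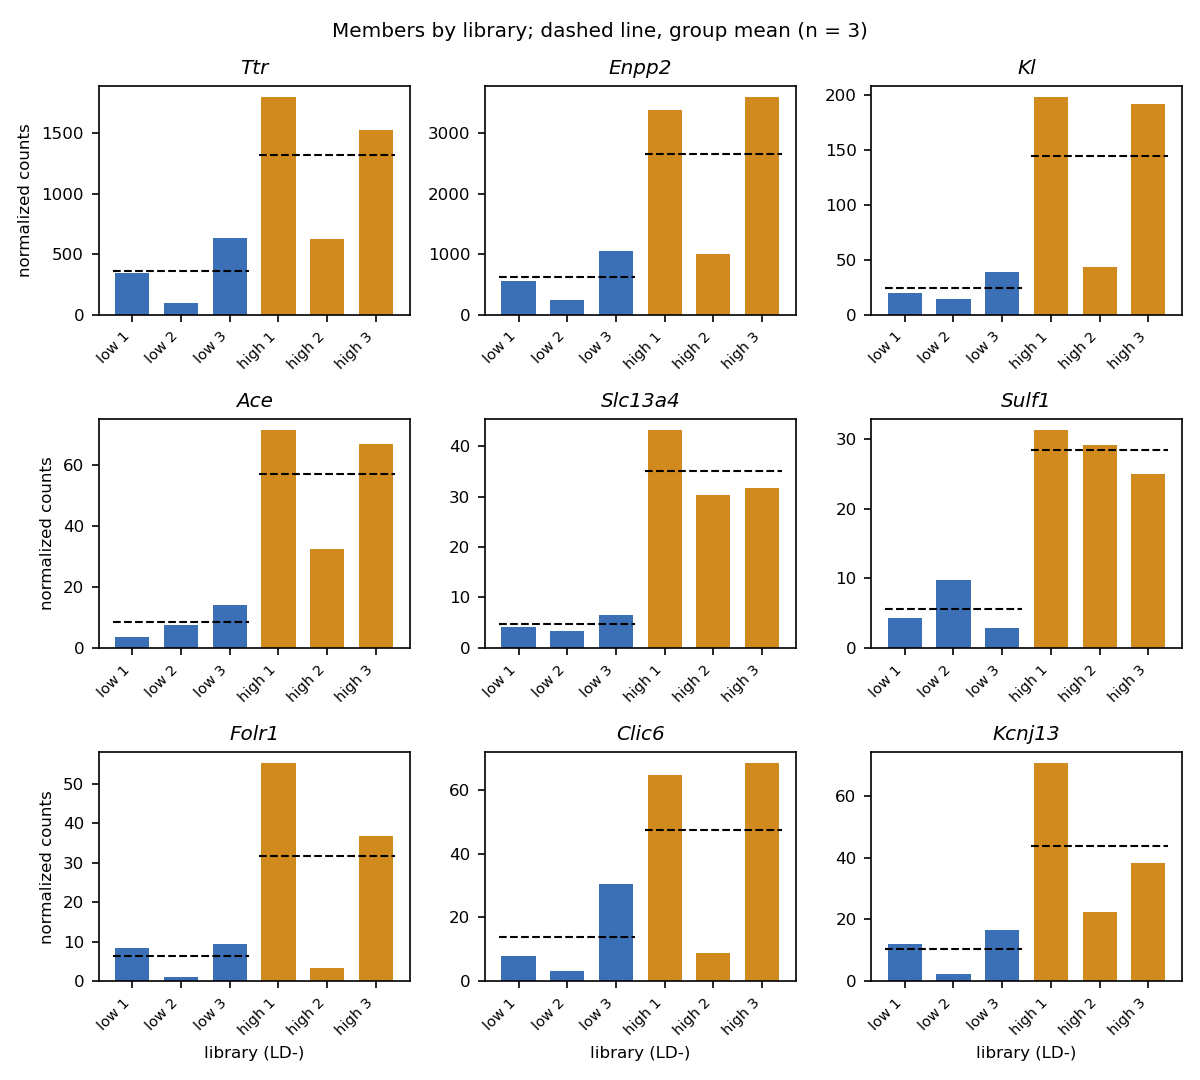
Normalized counts of the 9 genes in each library (bars; blue LD-low, orange LD-high), each panel on its own linear axis from 0, with the group mean as a dashed line (n = 3). LD-high libraries 1 and 3 are highest for Ttr, Enpp2, Kl, Ace, Folr1, Clic6 and Kcnj13, while LD-high library 2 is level with its group for Sulf1 and Slc13a4.

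All 9 genes had a higher mean in LD-high libraries, with ratios between 3.42 and 7.53 and a median of 5.07. For 5 of them the groups did not overlap (Kl, Ace, Slc13a4, Sulf1 and Kcnj13), and for 4 they did. Among all 11624 genes tested, 12.7% had every LD-high library above every LD-low library, but nothing can be read from the members' count, since this contrast chose them. Per kilobase of exon, the levels in LD-high libraries ran from Ttr (1082 ± 505 normalized counts per kilobase) and Enpp2 (767 ± 415), which lay within each other's spread, down to Kcnj13 (34.5 ± 19.4) and Kl (28.3 ± 17.1), also within each other's spread, and then to Folr1, Clic6, Ace, Slc13a4 and Sulf1 (13.8 to 6.18; SD, n = 3). In the LD-low libraries the same scale gave 294 for Ttr, 179 for Enpp2 and 1.03 to 8.09 for the other 7. Ttr thus ranked above 90.4% of 12949 genes of known length in LD-high libraries and above 67.1% in LD-low libraries, and Sulf1 above 20.3% and 10.02%. In RNA from a sorted pool, fewer cells of a type and less RNA per cell cannot be told apart.

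Within each group the genes shared an order of libraries. LD-high library 2 was the lowest of its group for 8 of 9 genes and LD-low library 3 the highest of its group for 8 of 9, in both cases all but Sulf1. LD-low library 2 was the lowest of its group for 7 genes. LD-high library 2 lay above LD-low library 3 for 5 of the 9, whereas LD-high libraries 1 and 3 lay above it for all 9. LD-high library 2 also lay above LD-low library 2 for all 9 genes. Counts between the groups follow in part from the choice of the members by this contrast. No share over all genes was computed for them, so nothing is read from them. The libraries of equal number are not known to come from the same pool.

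The same-group order can be looked at in genes other than the members. Of 26 tested genes of a list of other choroid plexus epithelium genes, LD-high library 2 was the lowest of its group for 19, LD-low library 3 the highest of its group for 19, and both held for 15. Over all 11624 tested genes the shares were 33.5%, 33.5% and 10.6%. However, Prlr, Cldn2, Sostdc1 and Car12 reached 10 normalized counts in LD-low library 3, in no other LD-low library and not in LD-high library 2. They could pass the filter of 3 libraries only with this order. The filter thus fixed the order in part, and the shares of the 26 genes are no independent comparison with those over all genes. The 25 listed genes too low to be tested, which summed to 46.3, 39.0 and 82.7 normalized counts in the LD-low libraries and 277, 57.1 and 225 in the LD-high libraries, had the lowest LD-high value in library 2 for 20 of 25. The highest LD-low value was in library 3 for 14 of 25. Ties at 0 reads, as for Mia and Wdr86 in LD-high libraries 2 and 3, were counted for the lower library number. No share over other genes of such low level was computed. Their sum too was lower in LD-high library 2 than in LD-low library 3.

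**Figure D2:**
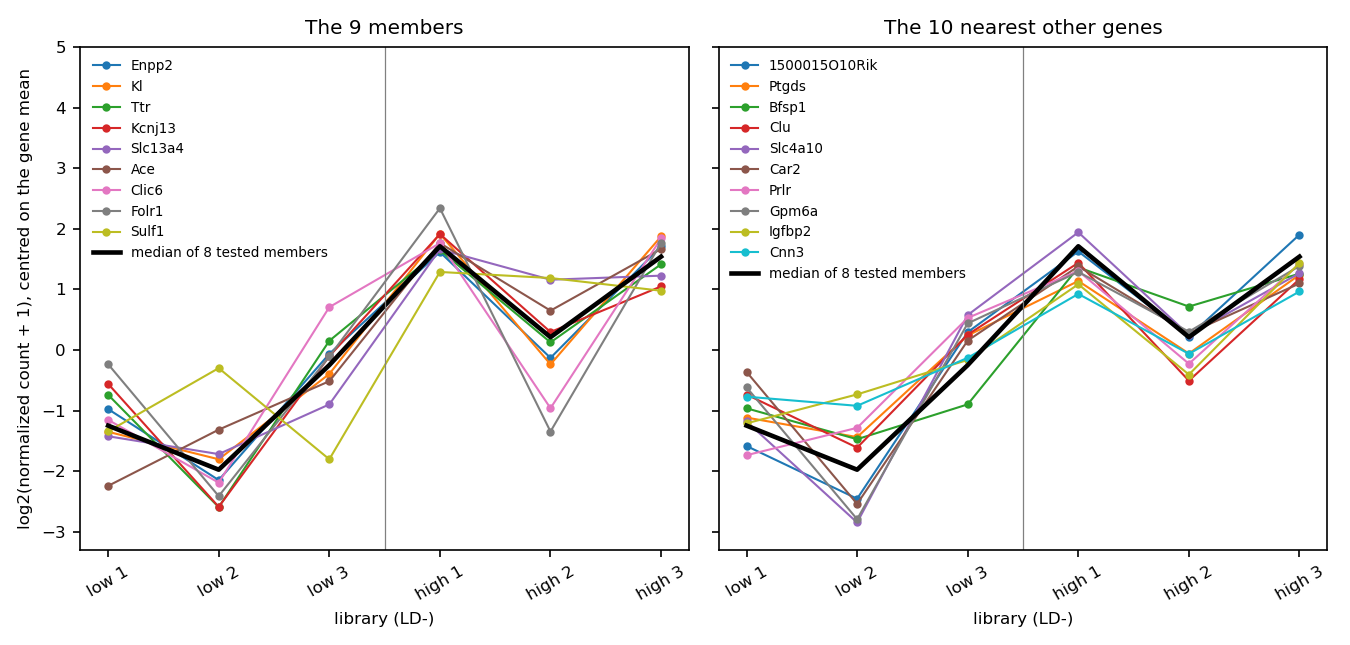
Log2(normalized count + 1) of each gene, centred on the gene's mean over the 6 libraries, for the 9 members (left) and the 10 other genes with the nearest profile (right); thin lines join one gene's points, and the black line is the median of the 8 tested members. The black line falls to 0.21 in LD-high library 2, between 1.71 and 1.54 in the other LD-high libraries. There Sulf1 and Slc13a4 lie above it and Folr1 and Clic6 below it.

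The relative amounts of the genes within a library were compared with Ttr and Enpp2 as references. Members and references alike were chosen for a higher level in LD-high libraries. Overlap of a share between the groups follows in part from that choice, and no ratio to genes outside it was computed. Ttr varied 19.1-fold and Enpp2 14.5-fold over the 6 libraries, but Ttr amounted to 61.3%, 38.0% and 60.4% of Enpp2 in the LD-low libraries and 53.3%, 62.2% and 42.5% in the LD-high libraries, a range of 1.64-fold. These shares overlapped between the groups, at 53.2% ± 13.2 and 52.6% ± 9.87 (SD, n = 3 each). Counting error alone did not cover the spread: the exact 95% intervals (Clopper-Pearson) were 39.3% to 45.9% in LD-high library 3 and 50.7% to 56.0% in LD-high library 1. These shares are of counts and not per length, so they compare libraries and not the levels of the genes.

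Kl amounted to between 3.51% (LD-low library 1) and 5.86% (LD-high library 1) of Enpp2, a range of 1.67-fold while Kl itself varied 14.1-fold. The group means of that share were 4.3% ± 1.2 and 5.17% ± 0.77 (SD, n = 3 each), and the groups overlapped. Kcnj13 stayed between 2.30% and 3.93% of Ttr, though the lowest value, in LD-low library 2, rested on 2 reads and had an exact 95% interval of 0.274% to 8.56%. Folr1 and Clic6 were relatively low in LD-high library 2: Folr1 was 0.537% of Ttr there (3 reads, exact 95% interval 0.110% to 1.58%), against 3.06% in LD-high library 1 (2.39% to 3.86%), and Clic6 was 1.43% (0.615% to 2.84%), against 4.47% in LD-high library 3 (3.19% to 6.11%).

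Relative to Ttr, the widest ranges were those of Sulf1 (23.7-fold) and Ace (7.87-fold), both with 3 to 9 reads in 1 or more LD-low libraries. Sulf1 amounted to 10.3% of Ttr in LD-low library 2 (9 reads, exact 95% interval 4.58% to 20.6%), 4.65% in LD-high library 2 (3.01% to 6.89%) and 0.437% to 1.74% in the other 4 libraries. Ace ranged from 1.02% to 8.05% of Ttr and Slc13a4 from 1.02% to 4.83%, with Slc13a4 highest in LD-high library 2. For every member, the share of Ttr overlapped between LD-low and LD-high libraries, which the choice of all of them by the same contrast makes likely. These intervals cover counting error only, because amplified reads without molecular identifiers are not independent molecules.

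**Figure D3:**
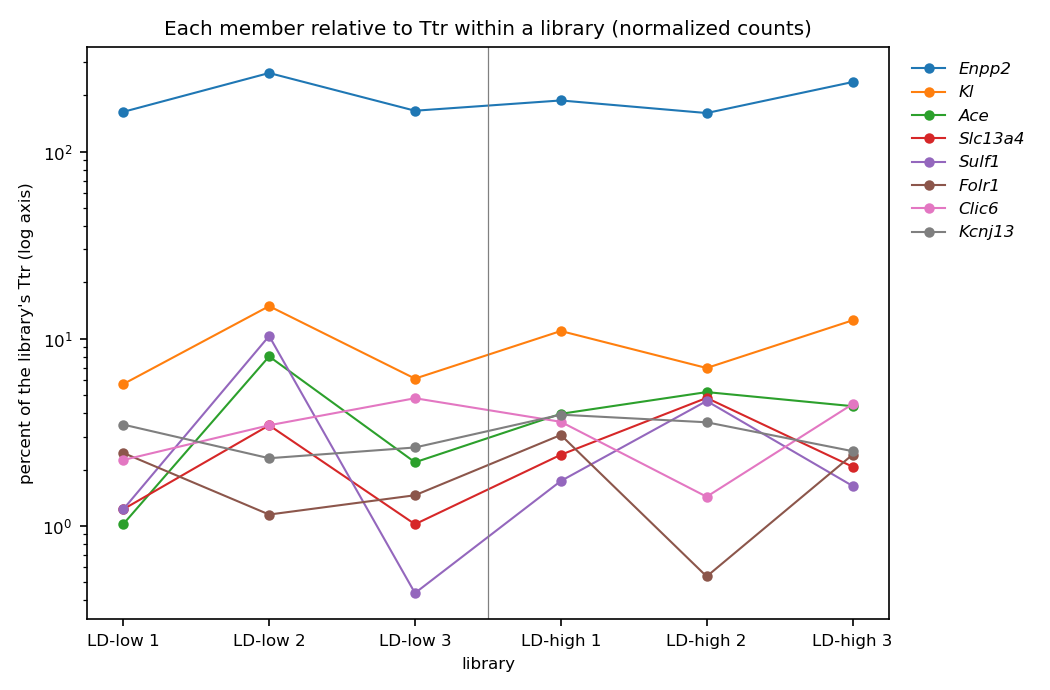
Each of 8 members as a percentage of Ttr in the same library (log axis; lines join one gene's points; no error shown). Enpp2 stays between 161% and 263% of Ttr, and Sulf1 has the widest range, from 0.437% in LD-low library 3 to 10.3% in LD-low library 2.

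Other genes of the choroid plexus epithelium were followed through a list of 56, of which 51 were in the table and 26 reached the filter of 10 normalized counts in at least 3 libraries. None of the 26 passed the test over all genes by limma (adjusted p under 0.05), and edgeR called none of them either, while DESeq2 called 2 of the listed genes higher. Over all genes tested, limma called 1.53% higher and 1.82% lower. At an unadjusted p under 0.05, 7 of the 26 were higher and 2 lower in limma, where 9.68% of all tested genes were higher and 10.1% lower. Of the 26, 22 lay above 0 and 4 below, where 5662 of all 11624 tested genes lay above 0. Their median log2 difference was 0.98, against -0.01 over all genes tested. Some of the 26, such as Slc29a4 and Car12, reached 10 normalized counts in LD-low library 3 and otherwise only in LD-high libraries. The list was also chosen with earlier results known. These counts and the median thus describe the 26 genes and not the whole list, and are no independent comparison with all genes. With LD-high library 1 left out the median was 0.56, with LD-high library 3 left out 0.55 and with LD-low library 1 left out 0.65. It was 0.14 where a filter of 50 normalized counts was used.

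The higher end of the list was made of genes of low level. Slc29a4, a monoamine transporter, had 2.81, 0 and 11.1 normalized counts in the LD-low and 26.8, 21.3 and 18.4 in the LD-high libraries (log2 difference 2.67 ± 0.84, SE, limma adjusted p 0.0946). The carbonic anhydrase Car12 had a log2 difference of 2.62 ± 0.91, 1500015O10Rik one of 2.50 ± 0.76, the bicarbonate transporter Slc4a10 one of 2.30 ± 0.76 and the Wnt and BMP antagonist Sostdc1 one of 2.24 ± 1.25, with adjusted p from limma of 0.0843 to 0.340. Sostdc1 shows how uneven the libraries were: it had 0.702, 0 and 19.5 normalized counts in the LD-low and 41.0, 1.12 and 40.1 in the LD-high libraries. The tight junction gene Cldn2 was alike, with 13.9 in LD-low library 3 and 0 in LD-high library 2.

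The listed genes with the highest level per kilobase were Slc12a2 (a sodium, potassium and chloride cotransporter), Slc31a1 (a copper transporter), Cab39l, Slc39a4 (a zinc transporter) and Trpv4 (a cation channel). They lay at 308 to 6735 normalized counts in every library, with log2 differences of 0.11 to 0.27. Cab39l had 1359 ± 76 and 1638 ± 67 normalized counts (SD, n = 3 each; limma adjusted p 0.0779) and did not overlap between groups. At the lower end, Glb1l2 had a log2 difference of -1.35 ± 0.59 (SE) and Rdh5, a retinol dehydrogenase, one of -0.58 ± 0.22, with adjusted p of 0.222 and 0.163 from limma.

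Several defining genes of the epithelium were near the limit of detection. Otx2 had 0, 3 and 5 reads in the LD-low and 15, 2 and 7 reads in the LD-high libraries. Aqp1, the water channel of the apical membrane, had 0, 0 and 3 reads against 13, 5 and 3 reads, and Kcne2, a potassium channel subunit, had 3, 0 and 3 against 25, 2 and 6 reads. The keratin gene Krt18, named after its values were seen, had 0 reads in all 3 LD-low libraries and 13, 5 and 10 reads in the LD-high libraries. It was called where low genes were kept, with an adjusted p of 0.0262 in limma without the filter and 0.00877 in DESeq2. At least 1 read was found for 40, 34 and 45 of the 51 listed genes in the LD-low and 50, 42 and 48 in the LD-high libraries, which differ in depth.

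**Figure D4:**
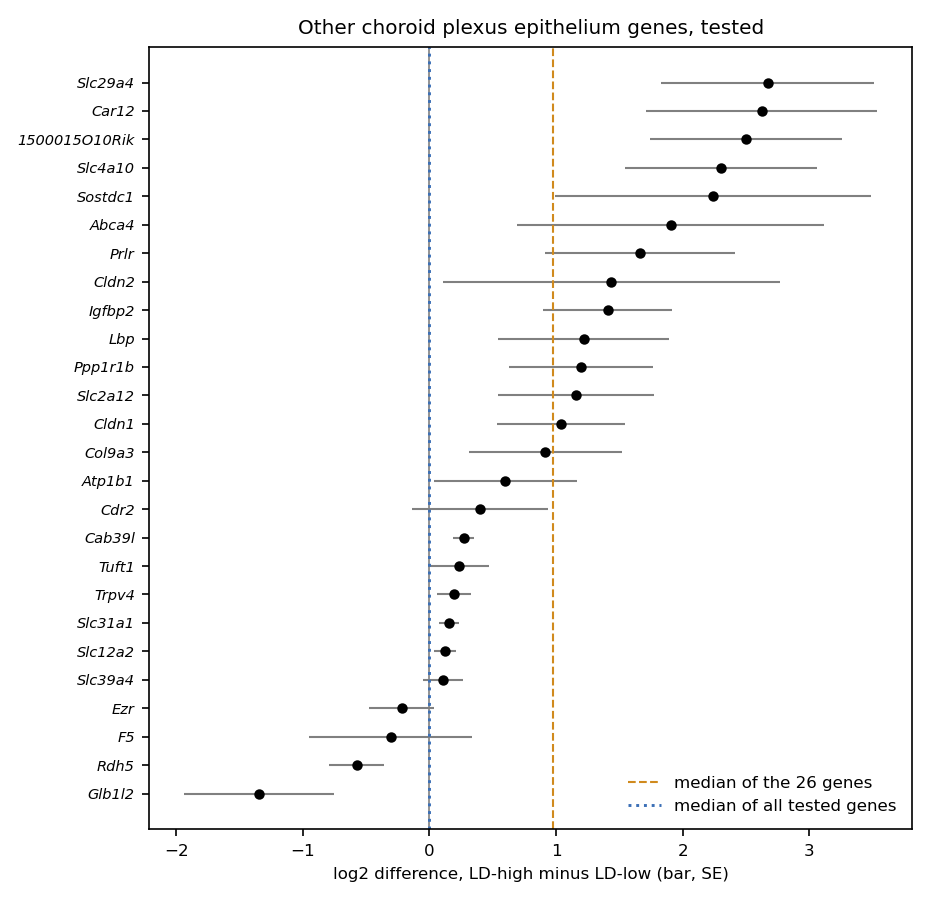
Log2 difference (LD-high minus LD-low) with its SE for the 26 tested genes of the other choroid plexus epithelium list, with the median of the 26 (dashed, 0.98) and of all tested genes (dotted, -0.01). The differences spread from -1.35 for Glb1l2 to 2.67 for Slc29a4, and the genes of high level, such as Slc12a2, lie near 0 with small SE.

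By the nearest centred profile, 4 of the 10 genes most like the members came from the choroid plexus list: 1500015O10Rik, Slc4a10, Prlr (the prolactin receptor) and Igfbp2 (a binder of insulin-like growth factors). The other 6 were Ptgds (prostaglandin D synthase, a protein of cerebrospinal fluid), Bfsp1, Clu (clusterin), Car2 (a carbonic anhydrase), Gpm6a and Cnn3. The measure was the root mean square difference from the members' median profile over 6 libraries among the 11583 genes that averaged 10 normalized counts or more, and it was 0.36 for 1500015O10Rik and 0.63 for Cnn3, against a median of 1.36 over all these genes. Since the profile includes the group difference, these genes were higher in LD-high libraries by construction. Clu, on the astrocyte list, had 50.5, 27.1 and 101.2 normalized counts in the LD-low and 232, 59.4 and 192 in the LD-high libraries, so LD-high library 2 again lay below LD-low library 3. Ptgds had 7.02, 5.41 and 19.5 against 37.2, 15.7 and 40.1. The contrast between the groups helped to choose these 10 genes, so no test of it is given for them as a set.

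The partners of the 9 proteins were followed in 7 pathway lists with 61 tested genes. Of these, 2 passed limma over all genes, 1 in each direction, a share of 3.28% that is near the background of 3.36% called, so the count is no result about the lists. Lpar6, a receptor for lysophosphatidic acid, the product of autotaxin, fell: its LD-low mean was 7072 ± 626 normalized counts and its LD-high mean 5195 ± 766 (SD, n = 3 each). That is a log2 difference of -0.45 ± 0.10 (SE, limma adjusted p 0.025). The call on Lpar6 was lost when LD-high library 1 or 3 or LD-low library 2 or 3 was left out, with adjusted p from limma of 0.0549 to 0.112. Lpar5 had a log2 difference of 0.02 ± 0.08 (SE), and the other 7 tested genes of the lysophosphatidic acid list did not pass, with a median of -0.01 over its 9. The most abundant of them, the lysosomal phospholipase gene Pla2g15, had a log2 difference of -0.11 ± 0.08 (SE). Lpar1 and Lpar2 had at most 4.48 and 5.01 normalized counts in any library.

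Kcnj9, an inward rectifier related to Kcnj13, rose: its LD-low mean was 183 ± 9.12 normalized counts and its LD-high mean 286 ± 25.7 (SD, n = 3 each), a log2 difference of 0.64 ± 0.15 (SE, limma adjusted p 0.0309), and its libraries showed no dip in LD-high library 2 (316, 272 and 270.5 in LD-high libraries 1, 2 and 3). The call on Kcnj9 was lost in each of the 6 fits that left out 1 library, with adjusted p from limma of 0.0529 to 0.123. The other 6 tested genes of the Clic and inward rectifier list did not pass, among them Clic1 (0.04 ± 0.07), the list's most abundant gene.

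For klotho, none of 6 tested genes of its family and FGF signalling passed in limma (0 also at an unadjusted p under 0.05, with 0 in edgeR and 1 in DESeq2). Klb was among 6 listed genes not in the table, as was Fgf23. The sheddases Adam10 and Adam17, which can release klotho from the membrane, had log2 differences of 0.17 ± 0.08 and 0.01 ± 0.08 (SE). The receptor Fgfr2 was too low to be tested in limma, with 2, 0 and 0 reads in the LD-low and 33, 5 and 12 reads in the LD-high libraries, and was the gene DESeq2 called (adjusted p 0.0139; 0.0238 from limma without the filter). It was named after its values were seen.

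For folate, Folr2, a paralog of Folr1 whose gene lies 13013 bases away on chromosome 7 (108988512 to 108993831), had 77.2, 40.1 and 43.7 normalized counts in the LD-low and 33.5, 22.4 and 16.7 in the LD-high libraries, a log2 difference of -1.11 ± 0.39 (SE, limma adjusted p 0.129). Folr2 marks macrophages at brain borders, and the groups did not overlap for it, while Folr1 was higher in LD-high libraries 1 and 3. Counts were whole reads, so no read was divided between the paralogs. How reads that fit both were treated was not examined here, so both are uncertain to that extent. None of the 13 tested folate genes passed in limma, with 4 higher and 1 lower at an unadjusted p under 0.05 (9.68% and 10.1% of all tested genes), and none was called by edgeR or DESeq2. The lowest p was that of Mtr, methionine synthase (0.29 ± 0.09, SE, adjusted p 0.0811).

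Of the remaining lists, none of 8 tested thyroid hormone and retinol genes, 4 renin-angiotensin genes and 14 heparan sulphate and sulphate genes passed in limma, edgeR or DESeq2, and at an unadjusted p under 0.05 in limma there were 0, 1 and 1. Sulf2, the paralog of Sulf1, was at 431 ± 63.1 and 359 ± 55.9 normalized counts (SD, n = 3 each), a log2 difference of -0.27 ± 0.15 (SE). The (pro)renin receptor gene Atp6ap2 had a log2 difference of 0.11 ± 0.06, the peptidase gene Lnpep -0.33 ± 0.15, the transporter genes Slc46a1 of folate and Slco4a1 of thyroid hormone -0.04 ± 0.07 and -0.05 ± 0.07, the retinoid X receptor gene Rxra 0.14 ± 0.10, and the sulphate donor genes Papss1 and Slc35b2 0.20 ± 0.07 and 0.11 ± 0.07. Agt, which encodes the precursor of the substrate of Ace, had at most 2.98 normalized counts in any library.

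Markers of cell types near the choroid plexus were read in the same libraries, and their part in the members' differences was not tested. Of 16 ependymal and ciliated cell markers 6 were in the table, all too low to test, and together they had 4, 1 and 3 reads in the LD-low and 32, 8 and 15 reads in the LD-high libraries. Among them Foxj1, the regulator of motile cilia, had 0 to 0.702 normalized counts in LD-low and 2.98 to 6.68 in LD-high libraries. Rsph1 had 0 in LD-high library 2, while Pifo was highest there, at 4.48. LD-high library 2 was the lowest of its group for 2 of the 6 markers, where the share over all tested genes was 33.5%. A tie at 0 was counted for the lower library number. The 10 markers not in the table included Ccdc153, Tmem212 and Rarres2. The 5 of 11 fibroblast markers in the table summed to 35.7 to 75.1 normalized counts in LD-low and 15.7 to 79.7 in LD-high libraries. Dcn, Lum and Col1a1 were not in the table.

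Endothelial markers (7 of 10 in the table) summed to 1406 to 1854 normalized counts in LD-low and 1684 to 2167 in LD-high libraries, and Cldn5 was not in the table. Flt1, of this list, had a log2 difference of -2.94 ± 0.79 (SE), with an adjusted p of 0.0563 in limma, 0.0395 in edgeR and 0.0248 in DESeq2. Of the 6 endothelial markers tested 4 lay above 0, with a median of 0.28: Kdr (0.38 ± 0.13), Cdh5 (0.70 ± 0.38) and Slco1c1 (2.41 ± 0.79) were among them, with adjusted p from limma of 0.107 to 0.327. Pericyte markers (4 of 8) summed to 55.2 to 72.5 and 41.7 to 111. Oligodendrocyte markers (8 of 8) summed to 4654 to 4908 in LD-low and 5458 to 6014 in LD-high libraries, and astrocyte markers (9 of 9) to 6602 to 7881 and 8232 to 8938, both without overlap between the groups. The astrocyte sum was nearly all Slc1a3 (7183 and 8463 normalized counts on average), while Gfap, at 9.82 to 19.5 in LD-low and 1.12 to 9.68 in LD-high libraries, and Aqp4, with 0 in the LD-high libraries, were lower. Of the 4 astrocyte markers tested, Slc1a3, Clu and Aldoc lay above 0 and Aldh1l1 below. The oligodendrocyte sum was nearly all Cnp, Mbp and Mag, while the mean of Mog was 9.13 for LD-low and 2.72 for LD-high. In LD-high library 2, where the members' sum was 1803 against 5717 in LD-high library 1, the astrocyte markers were at 8938 against 8232 and the oligodendrocyte markers at 5458 against 6014. Slc1a3 made up 8813 and 7892 of these astrocyte sums. Several other astrocyte markers were lower in LD-high library 2 than in LD-high library 1: Clu was at 59.4 against 232, Gfap at 1.12 against 9.68 and Gja1 at 0 against 15.6. Aldoc went the other way, at 39.2 against 24.6. Neuron markers (5 of 9) summed to 209 to 237 in LD-low and 162 to 305 in LD-high libraries, and the erythroid list had 1 of 5 genes in the table, Alas2, at up to 23.1.

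Markers of brain border macrophages, which include those on the choroid plexus, were all found (9 of 9). Their LD-low sums ran from 18232 to 19902 normalized counts and their LD-high sums from 16988 to 22405, nearly all of it Stab1. Stab1 averaged 18837 over the 6 libraries, and the next highest marker, Mrc1, averaged 140. The sum thus describes Stab1, is no measure of border macrophages and says little of the other markers. None of the 7 tested passed in limma, edgeR or DESeq2, their median log2 difference was -0.40, and 1, Folr2, was lower at an unadjusted p under 0.05. Neutrophil markers (7 of 8 in the table) summed to 1222, 1589 and 4563 normalized counts in LD-low libraries 1, 2 and 3 and had 0 reads in the LD-high libraries, so they ran against the members between the groups, while LD-low library 3 was the highest LD-low library for both.

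**Figure D5:**
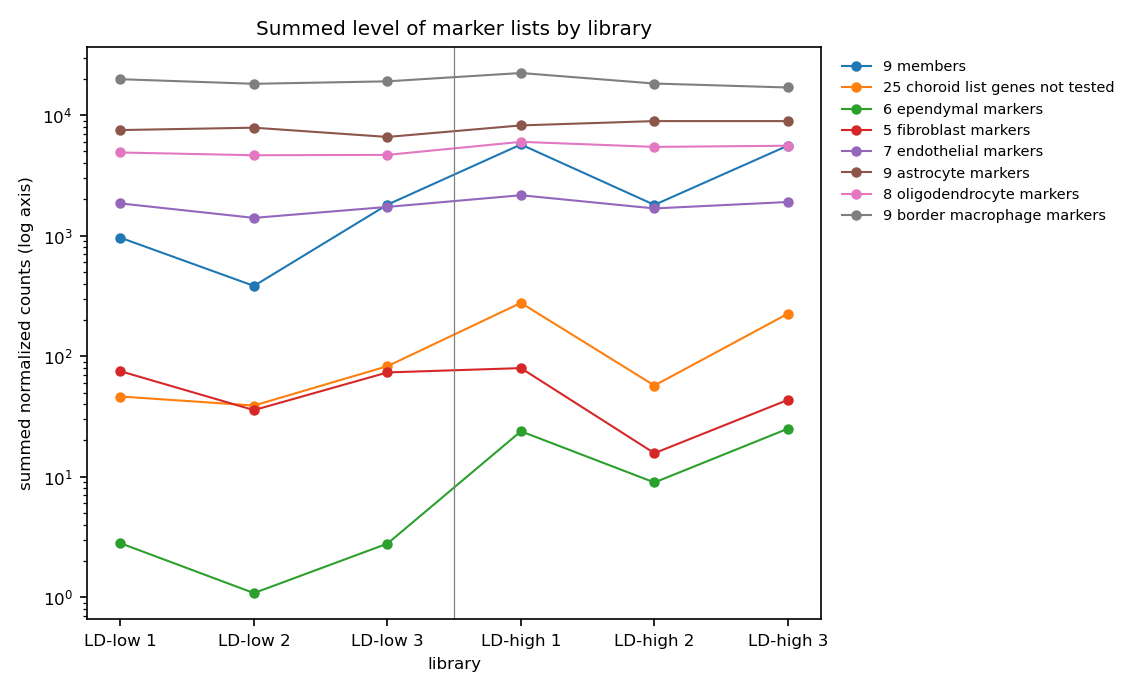
Summed normalized counts of the 9 members, of the 25 choroid plexus list genes too low to test and of marker lists of other cell types, by library (log axis; lines join one list's points; no error shown). The sums of the members, the 25 low genes and the 6 ependymal markers are lowest of the LD-high libraries in library 2, and that of the fibroblast markers too, while the oligodendrocyte and astrocyte sums, carried by few genes, change little.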

How the data were processed

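Per the series' design text and the submitters' processing notes, reads were checked with FastQC 0.11.4, aligned to mm9 with STAR 2.5.1b and counted per gene by STAR, and DESeq2 was used. The authors deposited 1 table with a normalized signal per gene and library. Its values were tested to be whole multiples of 1 step per library (100% within 0.01 reads), so reads could be recovered. The sources used here give neither the annotation nor the strand setting, and the kit named in the labels does not mark strand.

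Log2(value + 1) was fitted with limma 3.58.1 (R 4.3.3, mean-variance trend) for 11624 genes with at least 10 in at least 3 libraries. P-values are 2-sided, adjusted by Benjamini-Hochberg over all of them, with a threshold of 0.05. The fit had no term for the replicate number. Alternatives were pseudocounts 0.5 and 5, no filter or one of 50, TMM factors, equal totals, no trend, array weights, the replicate block, each library left out, edgeR 4.0.16 and DESeq2 1.42.0. Simulated data with known changes were used to test the fit: of 100 genes changed by 1 log2 unit 93% were called, of 100 changed by 0.5 62%, among 11595 genes with 4.32% of calls on unchanged genes. The changed genes were drawn only from genes averaging at least 50 normalized counts. These shares therefore do not hold for genes of lower level, such as most members and most tested choroid plexus list genes.

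The members and gene lists were chosen with earlier results of these data known. Named genes are the members, the listed genes past the threshold, the most abundant and the lowest p per list, the 5 choroid plexus list genes with the highest level per kilobase, the 10 nearest profiles and the paralogs Folr2 and Klb. Others, such as Slc29a4, Car12, Sostdc1, Cldn2, Glb1l2, Rdh5, Otx2, Aqp1, Kcne2, Mia, Wdr86, Sulf2, Adam17, Lpar1, Lpar2, Lpar5, Agt, Foxj1, Pifo, Gfap, Aqp4, Gja1, Aldoc, Aldh1l1, Mog, Kdr, Cdh5 and Slco1c1, were chosen after their values were seen. Exon lengths and gene coordinates are from GENCODE vM1 (NCBIM37).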

Additional observations from a re-analysis of the deposited data

How the results depend on the processing

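Over the alternatives that could test them, the log2 differences of the 8 tested members had these limits. The lowest was 1.10 for Clic6 without LD-low replicate 2, and the highest 3.14 for Ace without LD-low replicate 3. This contrast chose the members, so their sign in refits of the same libraries is no support for the difference. Slc13a4 and Sulf1 also reached the filter of 10 through the LD-high libraries alone. With a filter of 50 only Ttr and Enpp2 were left. A pseudocount of 5 lowered Slc13a4 to 2.05 and Sulf1 to 1.71, as their counts are low. Folr1 was not in these fits. Over all genes, limma called 390, against 715 in DESeq2, 15 without the mean-variance trend and 52 to 421 with 1 library left out; the cause was not tested.

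Choroid plexus list genes called higher numbered 0, against 2 in DESeq2 (Krt18 and Cab39l), 1 without the filter (Krt18) and 0 to 1 with 1 library left out (Igfbp2 without LD-high replicate 2). None was called lower in any of the 17 alternatives. Pathway list genes called numbered 2, against 3 in DESeq2, 3 without the filter, 0 without the trend and 0 to 2 with 1 library left out; the cause was not tested. The other scalings, pseudocounts and weights, and edgeR, left these counts within 1.5 times.

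Over tested genes, the deviations from the group means of same-numbered libraries correlated at 0.161, 0.132 and 0.064 for replicates 1, 2 and 3. Each library correlated best with its own number, a hint from the data and not from the design. With the replicate block 1090 genes were called, of the choroid plexus list 4 (Slc4a10, Slc29a4, 1500015O10Rik and Cab39l, all higher) and of the pathway lists 4 (Lpar6, Kcnj9, Mtr and Mthfd1). The labels do not say that the numbers pair the samples.

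Depth limits the low genes. Where 0 reads were seen, about 3 reads is the upper 95% limit of the expected count, for counting error only. In these libraries 3 reads are 2.11 to 5.01 normalized counts.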
